A study of Mus musculus with 6 samples.

Results

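Integrins are surface receptors made of 1 alpha and 1 beta chain, and 10 chain genes that leukocytes use were examined here: Itgae, Itgb7, Itga4, Itgb1, Itga6, Itgav, Itgb3, Itgb2, Itgal and Itgam. They were read in DN2 thymocytes, T-cell progenitors that carry neither CD4 nor CD8, sorted from wild-type and E2A-deficient fetal thymus. All probe sets that the array annotation gave to exactly 1 of these genes were taken, which came to 27 of 45037 probe sets and 10 of 18193 genes. Both groups had 3 arrays and shared the FVB background, and the study's question was which genes depend on E2A in developing T cells. The labels do not name the E2A allele, the fetal age or the number of animals behind an array. Nor do they say whether each replicate had animals of its own, so the p-values cover the spread between these samples only. That spread may be partly technical, though the wild-type arrays were not repeats of 1 sample, as sex-linked genes show below.

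An alpha chain and a beta chain reach the cell surface only as a pair, and the pair decides what the receptor holds. Itgae with Itgb7 binds E-cadherin on epithelium, Itga4 binds MAdCAM with Itgb7 and VCAM and fibronectin with Itgb1, Itga6 with Itgb1 binds laminin, Itgav with Itgb1 or Itgb3 binds matrix proteins, and Itgal or Itgam with Itgb2 binds ICAMs. In the thymus such receptors serve the entry, movement and placing of progenitors on stroma. E2A denotes the E proteins encoded by Tcf3, which bind short DNA motifs called E boxes, of the form CANNTG.

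Array medians lay between 77.4 and 79.0, and Pearson correlations across probe sets were 0.984 to 0.990 within groups and 0.975 to 0.984 between them. The targeted gene, Tcf3, read 477, 421 and 414 on the wild-type and 236, 229 and 281 on the E2A-deficient arrays, a change of -0.81 on the log2 scale (limma adjusted p = 0.00864). The DN2 markers Kit (272 to 298 in wild-type and 297 to 394 in E2A-deficient cells) and Il2ra (813 to 1007 and 773 to 1225) were well above the array medians in both groups. Thy1 read 319 to 427 in wild-type and 133 to 156 in E2A-deficient cells, and it was the 1 DN2 marker of 7 measured that passed the test. The wild-type arrays did not hold the same mix of sexes, since the female-expressed Xist read 3055, 4456 and 58.7. The Y-linked Eif2s3y read 204, 58.0 and 343 there, so these arrays were not repeats of 1 sample. On the E2A-deficient arrays Xist read 1901, 1247 and 2154 and Eif2s3y 230, 339 and 208, which does not settle the same point. The log2 ratio of 5′ to 3′ probes of the beta-actin control, a measure of RNA and amplification quality, was -3.26, -2.63 and -3.35 in wild-type replicates 1, 2 and 3 and -2.60, -2.65 and -2.74 in the E2A-deficient ones. It thus moved with genotype except in wild-type replicate 2, and results that it touches are given with it below.

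Of the 27 integrin probe sets, 6 were higher in E2A-deficient cells and 0 lower (limma, Benjamini-Hochberg adjusted p under 0.05 over all 45037 probe sets). Over all probe sets, 1.21% were called higher and 0.580% lower. At an unadjusted p under 0.05, 10 were higher and 1 lower. The 6 belonged to 5 genes, Itgae, Itgb7, Itga4, Itgb3 and Itgb2, so that 5 of 10 chains had at least 1 probe set called higher, against 2.20% of all genes, while 0 had one called lower, against 1.02% of all genes. With the brightest probe set of each gene, 4 of 10 were called higher (2.40% of all genes), and with the probe sets of each gene averaged 5 of 10 (2.78% of all genes). Brightness was the mean log2 intensity over all 6 arrays. For Itgae this took 1447541_s_at, which was dimmer than 1449216_at in wild-type cells (mean 60.6 against 77.2). Its own rise thus helped to select it, and 1449216_at was not called. On the raw intensities, all E2A-deficient arrays lay above all wild-type arrays for 8 of the 27, where 10.1% of all probe sets did so, and below them for 1, where 6.79% did so. The median log2 change was 0.05 over the 27 integrin probe sets and 0.0039 over all probe sets. With 1 brightest probe set per gene it was 0.40 over the 10 chains and 0.01 over all genes. Probe sets of 1 gene read the same transcripts and are not independent of each other. The 10 chains were chosen with earlier results of these data known. Their counts beside the shares of all genes are therefore descriptive and test no excess.

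**Figure D1:**
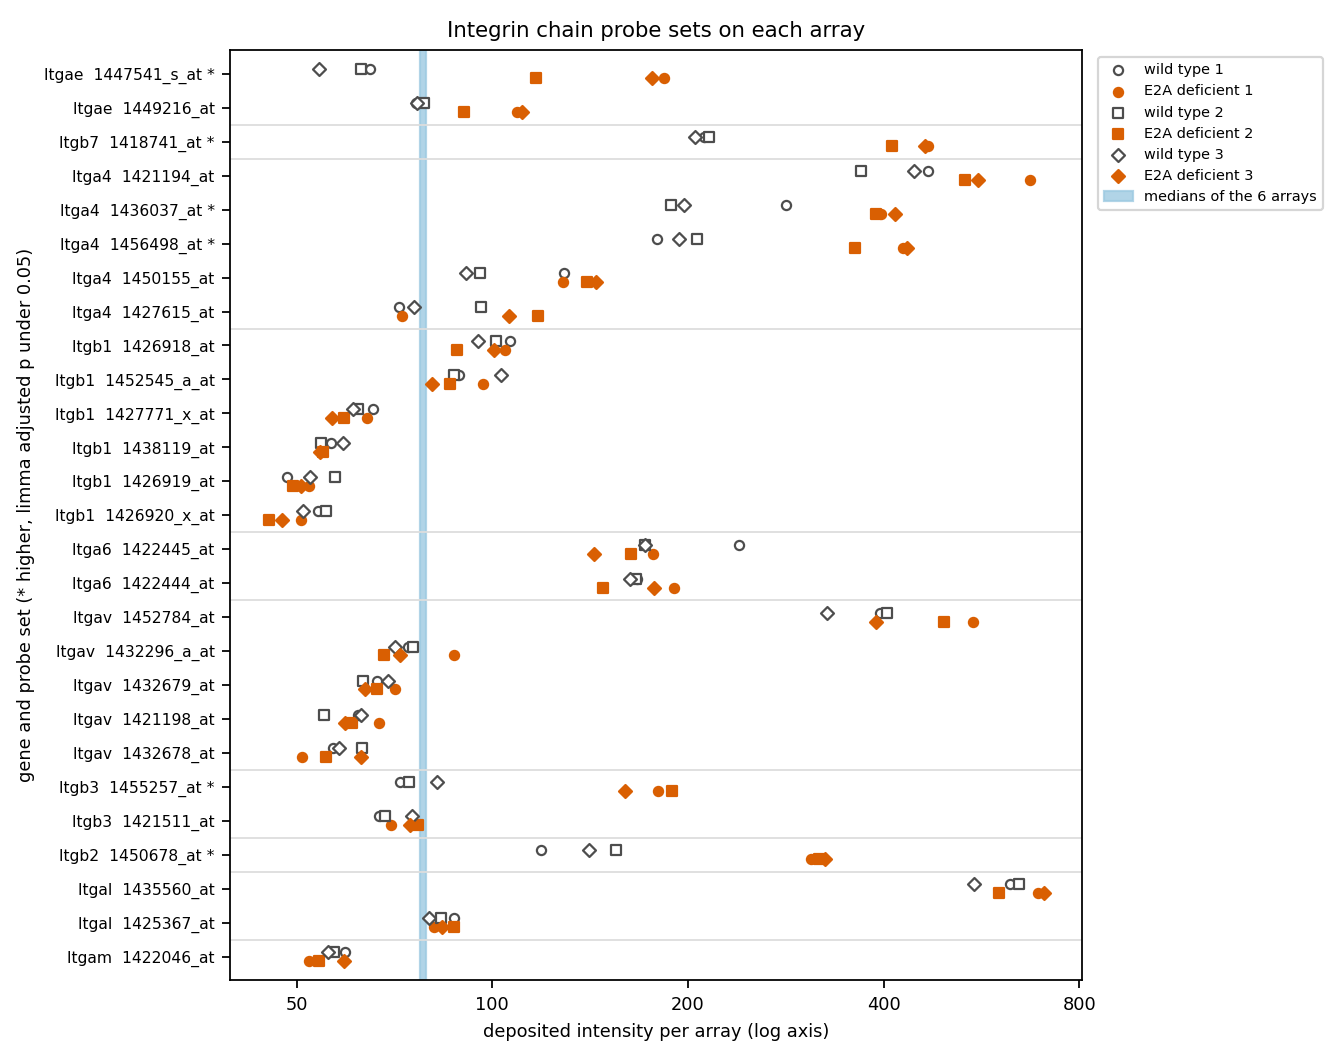
Deposited intensity of each integrin probe set on each array, on a log axis; open symbols are wild-type and filled symbols E2A-deficient arrays, shapes are the replicate numbers, and the blue band spans the medians of the 6 arrays. Asterisks mark the 6 probe sets called higher by limma, in which the filled symbols lie to the right of all open ones; several probe sets of Itgb1 and Itgav lie below the band in both groups.

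The chains that share Itgb7 come first. Itgb7, the beta chain of the receptors for E-cadherin and MAdCAM, read 212, 215 and 205 on the wild-type arrays and 469, 412 and 463 on the E2A-deficient arrays. The groups did not overlap, and every E2A-deficient array stood far above the narrow wild-type range. The log2 change was 1.08 (SE 0.0668, n = 3 per group, limma adjusted p = 0.000665), a 2.12-fold rise. This call held in all 18 other settings tried, with adjusted p between 0.000187 and 0.0250 in limma.

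Itgae, the alpha chain that pairs with Itgb7 alone and marks cells held in epithelium, had 2 probe sets of unequal response. The first, 1447541_s_at, read 64.9, 62.8 and 54.2 in wild-type cells and 184, 117 and 176 in E2A-deficient cells. All wild-type values were below the array medians and all E2A-deficient values above them, with replicate 2 the lowest of the latter. Its log2 change was 1.35 (SE 0.171, n = 3 per group, limma adjusted p = 0.0121), a 2.55-fold rise on a scale that compresses dim signals. The call was lost without wild-type replicate 2 (adjusted p = 0.0535 in limma) and without E2A-deficient replicate 3 (0.0538), while the change stayed between 1.23 and 1.56 whichever array was left out. The suffix of this probe set's name marks probes shared between transcripts. The second, 1449216_at, read 76.4, 78.6 and 76.6 against 109, 90.6 and 111. Its groups did not overlap either, but its change of 0.41 (SE 0.0844, limma adjusted p = 0.0683) missed the threshold. In RefSeq the kinase gene Haspin lies within the Itgae gene, and its own probe set read 158, 253 and 192 in wild-type and 164, 279 and 324 in E2A-deficient cells. Haspin's groups overlapped, and its change of 0.32 was not called (limma adjusted p = 0.765).

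Itga4, the alpha chain that pairs with Itgb7 or Itgb1, had 5 probe sets, and all of their changes were positive. The probe set 1456498_at read 179, 206 and 194 in wild-type and 429, 361 and 434 in E2A-deficient cells. The groups lay far apart, and the change was 1.07 (SE 0.0903, n = 3 per group, limma adjusted p = 0.00234). In 1436037_at the values were 283, 189 and 198 against 397, 390 and 417, so that wild-type replicate 1 stood nearest to the E2A-deficient arrays. That change was 0.87 (SE 0.146, limma adjusted p = 0.0356), and it stayed between 0.76 and 1.05 whichever array was left out. Among these fits the call held only when wild-type replicate 1 was the array left out. Without wild-type replicate 2 or 3, or without E2A-deficient replicate 1, 2 or 3, its adjusted p in limma was 0.0963, 0.107, 0.113, 0.0997 and 0.134. With the replicate number as a block it was 0.0623. The probe set was called in 9 of the 16 other settings that held it.

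The brightest Itga4 probe set, 1421194_at, missed the threshold. It read 468, 369 and 445 in wild-type and 671, 534 and 559 in E2A-deficient cells, with no overlap and a change of 0.46 (SE 0.117, limma adjusted p = 0.132). Another, 1450155_at, read 129, 95.7 and 91.1 against 129, 140 and 145, and its groups touched at replicate 1. Its change was 0.40 (limma adjusted p = 0.239), called only without wild-type replicate 1. The dim probe set 1427615_at changed by 0.26 with overlapping groups. The mean of the 5 probe sets changed by 0.61 (SE 0.0620, limma adjusted p = 0.00219 over all genes). The log2 change of Itga4 thus ranged from 0.26 to 1.07 between its probe sets. Cerkl, a gene that overlaps Itga4 in RefSeq, changed by -0.05.

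RefSeq promoter windows of assembly GRCm38.p6, the 250 bases before the annotated start, were found for 5 of the 10 chains: Itga4, Itgam, Itgav, Itgb1 and Itgb7. Those of Itga4 and Itgb7 are shown because both chains of that pair had called probe sets, and that of Itgb1, the other partner of Itga4, because it had none. Each is printed 5′ to 3′ on the gene's strand, with any E box (CANNTG, a motif that reads as CANNTG on both strands) in capitals.
Itgb7, chr15:102231936-102232185, minus strand: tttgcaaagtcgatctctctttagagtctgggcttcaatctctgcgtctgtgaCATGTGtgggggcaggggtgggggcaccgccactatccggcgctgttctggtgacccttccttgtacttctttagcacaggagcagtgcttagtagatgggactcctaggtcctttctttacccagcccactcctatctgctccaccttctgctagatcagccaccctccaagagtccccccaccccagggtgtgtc
Itga4, chr2:79255176-79255425, plus strand: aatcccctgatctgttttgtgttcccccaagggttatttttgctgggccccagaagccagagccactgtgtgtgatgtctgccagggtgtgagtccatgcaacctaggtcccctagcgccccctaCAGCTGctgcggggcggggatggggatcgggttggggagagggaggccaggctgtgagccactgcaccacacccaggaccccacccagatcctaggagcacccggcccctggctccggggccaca
Itgb1, chr8:128685404-128685653, plus strand: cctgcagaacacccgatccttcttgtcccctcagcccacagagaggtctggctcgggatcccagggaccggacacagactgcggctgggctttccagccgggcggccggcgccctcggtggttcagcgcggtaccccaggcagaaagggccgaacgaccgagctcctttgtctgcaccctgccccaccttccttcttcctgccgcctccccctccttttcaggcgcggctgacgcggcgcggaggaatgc
The Itga4 window held 1 E box, CAGCTG, 125 bases before the start, and the Itgb7 window held 1, CATGTG, 197 bases before it. The Itgb1 and Itgav windows held none, and the Itgam window held CAGATG 154 bases before the start. Of 32851 windows of that length, 66.2% held CANNTG, 13% held CAGCTG and 17.2% held CAGGTG on either strand, so an E box is common in windows of this kind. A match describes the letters of the window and shows no binding.

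The chains that pair with Itgb1 followed no common direction. Itgb1 itself, the beta chain of the widest group of matrix receptors, had 6 probe sets with changes from -0.16 to -0.05 and none called. In the brightest, 1426918_at, the values were 107, 101 and 95 in wild-type and 105, 88.3 and 101 in E2A-deficient cells. The groups overlapped, and the change of -0.05 had a 95% interval of -0.24 to 0.14. One dim Itgb1 probe set, 1426920_x_at, read 54.0, 55.5 and 51.2 against 50.8, 45.3 and 47.4 and was the 1 integrin probe set whose E2A-deficient arrays all lay below the wild-type ones. It changed by -0.16 (limma adjusted p = 0.365). Of the 6 Itgb1 probe sets, 4 lay below the array median on every array.

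Itga6, the laminin-receptor alpha chain, had 2 probe sets that disagreed in sign. Its 1422445_at read 240, 172 and 172 in wild-type and 177, 163 and 143 in E2A-deficient cells, where wild-type replicate 1 alone stood high. The change was -0.26 (SE 0.143, limma adjusted p = 0.572), and 1422444_at changed by 0.05. No change of Itga6 could be told from the spread between arrays.

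Itgav, which pairs with Itgb1 and Itgb3 in receptors for matrix proteins, was bright in 1 of 5 probe sets. That probe set, 1452784_at, read 394, 405 and 327 in wild-type and 549, 496 and 390 in E2A-deficient cells. The groups overlapped at E2A-deficient replicate 3, and the change was 0.34 (SE 0.138, limma adjusted p = 0.370). The other Itgav probe sets changed by -0.08 to 0.05, and 0 of them lay above the median on all 6 arrays.

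Itgb3, the beta chain that joins Itgav or the platelet chain Itga2b, rose in 1 of 2 probe sets. In 1455257_at the wild-type arrays read 72.2, 74.4 and 82.2 and the E2A-deficient arrays 180, 189 and 160. Wild-type values lay about the array medians and E2A-deficient values well above them, with a change of 1.20 (SE 0.0822, n = 3 per group, limma adjusted p = 0.00114). The call held in all 18 other settings, where the mean of both Itgb3 probe sets gave the smallest change, 0.63. The probe set 1421511_at read 67.0, 68.5 and 75.3 against 69.8, 77.0 and 74.8 and did not rise above the array medians in either group. Its change was 0.07 (limma adjusted p = 0.805). Itga2b, named here as the other partner of Itgb3 after its values were seen, read 310, 403 and 384 in wild-type and 399, 628 and 504 in E2A-deficient cells, and its change of 0.46 was not called (limma adjusted p = 0.306).

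Of the leukocyte chains that share Itgb2, the beta chain changed and the alpha chains did not pass the test. Itgb2, the common chain of the ICAM receptors, read 119, 155 and 141 in wild-type and 309, 318 and 325 in E2A-deficient cells. The E2A-deficient arrays lay close together, all far above the wild-type ones. The change was 1.20 (SE 0.0971, n = 3 per group, limma adjusted p = 0.00194), a 2.30-fold rise called in all 18 other settings. Itgal, its alpha partner in lymphocytes, read 625, 647 and 552 against 692, 601 and 705 in 1435560_at. The groups overlapped, and the change of 0.13 had a 95% interval of -0.08 to 0.34. The second Itgal probe set changed by 0.01. Itgam, its alpha partner in myeloid cells, read 59.4, 57.2 and 55.8 against 52.2, 54.1 and 59.2, below the median on every array, and changed by -0.06.

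**Figure D2:**
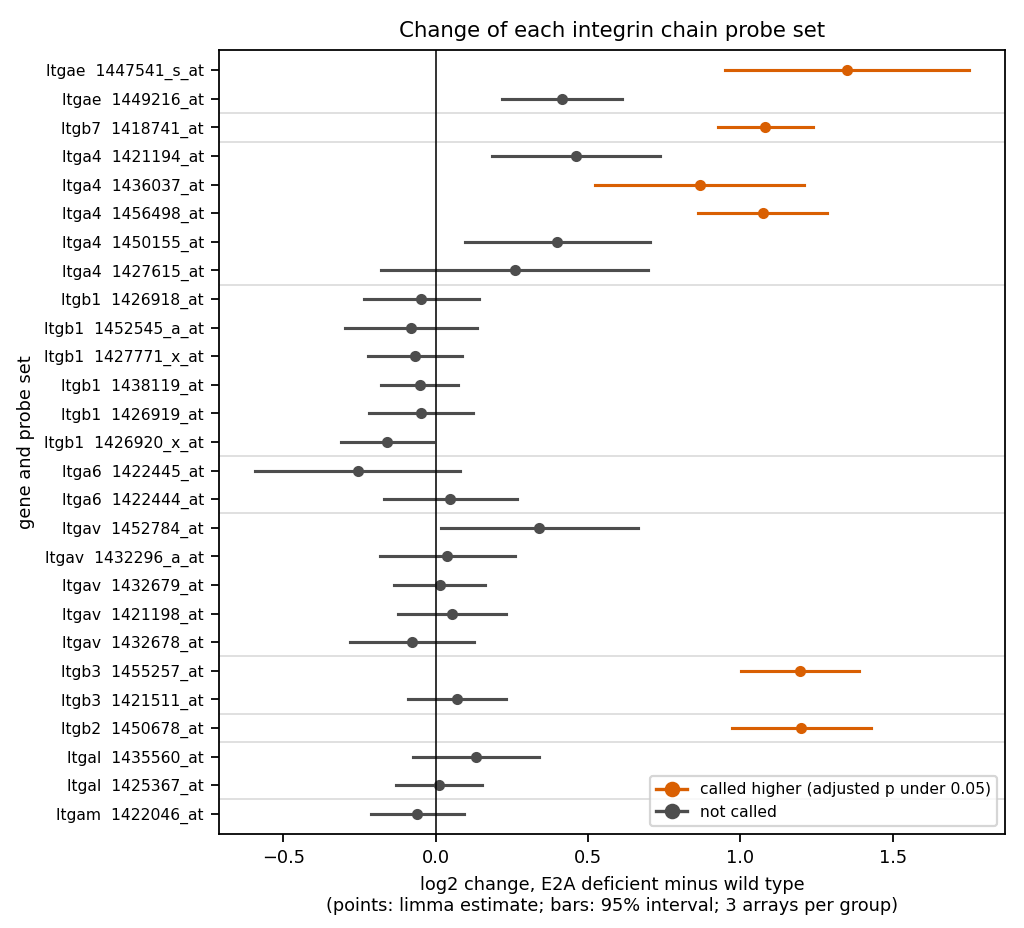
Log2 change of each integrin probe set, E2A deficient minus wild type, with its 95% interval from limma (3 arrays per group, not adjusted for the number of probe sets). Intervals of the 6 called probe sets, whose changes were 0.87 to 1.35, lie wholly to the right of 0, and those of Itgb1 lie about or just below it.

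The 8 alpha-beta pairs were then compared chain against chain, by the difference of log2 values within an array between the brightest probe sets. An exact two-sided permutation test of 3 against 3 arrays cannot go below p = 0.1, so no pair could pass 0.05. For Itgae and Itgb7, both of which rose, the alpha change exceeded the beta change by 0.27 (SE 0.161), with overlapping groups and exact p = 0.3 (0.343 adjusted over the 8 pairs). The mean of the probe sets of each gene turned that difference to -0.20. The Itgae probe set used here was selected partly by its own rise, and Itgae 1449216_at changed by 0.41 beside 1.08 for Itgb7. In the other pairs with a called beta chain the difference was negative on these probe sets. It was -0.62 (SE 0.138) for Itga4 and Itgb7, -0.86 (SE 0.178) for Itgav and Itgb3 and -1.07 (SE 0.149) for Itgal and Itgb2, in each without overlap between the groups of arrays and with exact p = 0.1 (0.16 adjusted over the 8 pairs). These differences depend on the probe set: Itga4 1456498_at changed by 1.07 beside 1.08 for Itgb7, and Itgb3 1421511_at by 0.07 beside 0.34 for Itgav. With the mean of each gene's own probe sets they were -0.47 for Itga4 and Itgb7, -0.56 for Itgav and Itgb3 and -1.13 for Itgal and Itgb2. For Itgam and Itgb2 the difference of -1.26 (SE 0.136, exact p = 0.1, adjusted 0.16) mostly restates the change of Itgb2, because Itgam lay below the median on every array. Of the Itgb1 pairs, Itga4 exceeded Itgb1 by 0.51 (SE 0.124) with no overlap (exact p = 0.1, adjusted 0.16). The Itgb1 probe set used, at 88.3 to 107, lay not far above the array medians. Differences from it therefore mostly restate the changes of the alpha chains. Itgav exceeded Itgb1 by 0.39 (SE 0.175, exact p = 0.2, adjusted 0.267), with overlap, and by 0.15 with the mean probe sets. For Itga6 and Itgb1 the difference was -0.21 (SE 0.165, exact p = 0.4, adjusted 0.4), with overlap. It was -0.09 without wild-type replicate 1, -0.11 without E2A-deficient replicate 3 and -0.03 with the mean probe sets. Pairs that share a chain are not independent of each other.

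**Figure D3:**
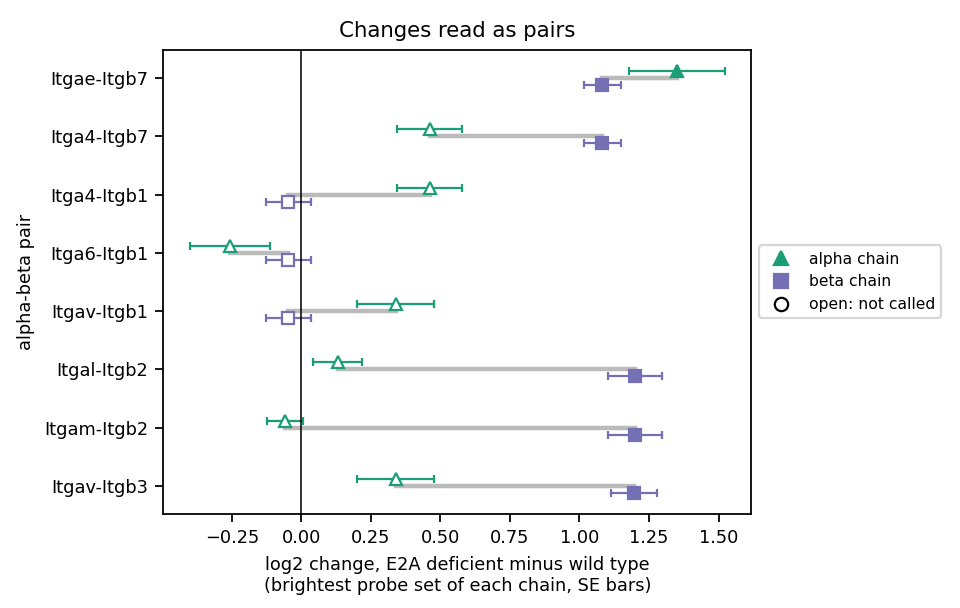
Log2 change of the alpha chain and the beta chain of each pair, E2A deficient minus wild type, from the brightest probe set of each gene (3 arrays per group); bars are standard errors from limma, grey lines join the chains of a pair, and open symbols were not called. Itgae and Itgb7 both lie above 1, whereas Itgal, Itgam and Itgav stay below 0.4 beside partners at 1.20. The Itgae probe set shown was dimmer than the other Itgae probe set in wild-type cells. The Itga4 probe set shown was not called, though 2 of the 5 Itga4 probe sets were called higher.

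RNA quality and cell content were measured beside these calls. In a fit that took the beta-actin ratio into account, 3 of the 6 calls remained: Itgb7 (change 1.05, limma adjusted p = 0.0250), Itgb3 (1.22, 0.0309) and Itgb2 (1.07, 0.0426). The changes of Itgae 1447541_s_at and of Itga4 1436037_at and 1456498_at were 1.30, 1.04 and 1.00 in that fit, with adjusted p of 0.184, 0.158 and 0.0559 in limma, and their calls were lost. All probe sets together gave 71 higher and 43 lower calls in place of 543 and 261. In wild-type replicate 2, whose ratio lay among those of the E2A-deficient arrays, 3 of the 6 called probe sets had their highest wild-type value: Itgb7 at 215, Itga4 1456498_at at 206 and Itgb2 at 155. The others were highest in another wild-type replicate, and the share over all probe sets was not computed. In that replicate, as in the other wild-type replicates, all 6 lay below every E2A-deficient value. This only restates that the groups of the 6 did not overlap, and it tests no part of RNA quality. The part of RNA quality in the 3 calls that were lost was not tested.

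Markers of other cells moved too, and in sorted bulk cells a rise in a cell's share and a rise per cell cannot be told apart. The marker lists were also chosen with earlier results known, so their counts are descriptive. Of gamma-delta T-cell markers, 3 of 6 measured were called higher (Cd163l1, Etv5 and Maf) and 0 lower, beside 2.20% and 1.02% of all genes, and the summed intensity of the list went from 646 to 696 in wild-type to 1260 to 1665 in E2A-deficient cells. Within that sum, mean Cd163l1 went from 147 to 618 and Maf from 122 to 505, while Blk (81.3 and 82.0) and Il17a (64.9 and 65.5) stayed flat. Etv5 was called in 1428142_at only (change 0.58, limma adjusted p = 0.0418). Its 1420998_at and 1450082_s_at changed by 0.08 and -0.03. Sox13 of the same list, named after its values were seen, read 207, 183 and 199 against 158, 152 and 135, lower with no overlap but not called (change -0.41, limma adjusted p = 0.0586). Of innate lymphoid and NK markers, 2 of 7 were higher (Rora and Zbtb16) and 0 lower, beside 2.20% and 1.02% of all genes. Their sums were 1456 to 1738 and 2393 to 2468. Within that sum, mean Rora went from 71.8 to 326 and Zbtb16 from 276 to 726. Eomes (76.4 and 72.2), Klrd1 (70.6 and 73.5), Ncr1 (68.1 and 71.4), Tbx21 (59.3 and 62.3) and Nkg7 (970 and 1097) were not called. The part of gamma-delta and innate lymphoid cells in the integrin changes was not tested. Of macrophage, monocyte and granulocyte markers, which bear on Itgb2 and Itgam, 0 of 9 were higher and 1, the lysozyme gene Lyz2, was lower (-0.50, limma adjusted p = 0.0222), and their sums of 1429 to 1694 and 1574 to 1806 overlapped. Of megakaryocyte and platelet markers, which bear on Itgb3, 0 of 7 were called. Their sums were 501 to 529 in wild-type and 533 to 555 in E2A-deficient cells, and 3 of the 7 lay below the median on every array. These sums did not overlap, and their part in the change of Itgb3 was not tested. None was called among 8 mast cell and basophil, 7 dendritic, 5 endothelial, 6 mesenchymal, 6 thymic epithelial and 4 B-lineage markers, or among the coreceptor genes Cd4, Cd8a and Cd8b1. Of these lists, only the thymic epithelial sums did not overlap (471 to 510 in wild-type and 516 to 557 in E2A-deficient cells).

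The remaining integrin chains and the proteins around them were read from 7 lists. Of their 84 measured genes 5 (5.95%) had a probe set called higher and 2 (2.38%) one called lower, beside 2.20% and 1.02% of all genes. These lists were chosen with earlier results known, so the counts are descriptive. Of 14 other integrin chains, 0 were called, and their median change was -0.0040 beside 0.01 over all genes. The smallest p-values there belonged to Itgb5 (change 0.28, limma adjusted p = 0.0876), Itga9 (-0.34, 0.199) and Itgb4 (0.23, 0.243). Of 13 ligand genes, whose products integrins bind on other cells or in the matrix, the laminin chain Lamc1 alone rose, with changes of 0.65 and 0.58 in its 2 called probe sets (limma adjusted p = 0.0261 and 0.0490). The first of these read 73.0, 88.4 and 88.2 in wild-type and 145, 128 and 120 in E2A-deficient cells, and the median of the list was 0.03.

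Among 18 genes that switch integrins on from inside the cell, 1 rose and 1 fell, beside 2.20% and 1.02% of all genes. The median change was 0.08. The adaptor Skap1 read 116, 123 and 130 in wild-type and 167, 153 and 155 in E2A-deficient cells, a change of 0.36 (limma adjusted p = 0.0490). The other Skap1 probe sets, 1440782_at and 1441322_at, changed by -0.15 and 0.10 and were not called. Fyb, the binding partner of Skap1, read 498, 463 and 465 against 217, 268 and 199 in 1435144_at, a fall with no overlap and a change of -1.07 (limma adjusted p = 0.00490). The second called Fyb probe set changed by -1.17 (limma adjusted p = 0.00897). Of 9 genes that hold integrins or the GTPase Rap1 off, Sipa1, which switches Rap1 off, rose from 173, 180 and 171 to 274, 218 and 260 (change 0.51, limma adjusted p = 0.0416), and the median was 0.10.

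Of 13 adaptors and kinases that act behind bound integrins, 0 were called and the median was -0.0036. Fyn changed by -0.32, Zyx by 0.28 and Lims1 by -0.24, with adjusted p of 0.181, 0.183 and 0.184 in limma. Of 8 membrane partners of integrins, the tetraspanin Cd81 rose by 0.64 (299, 319 and 384 against 563, 528 and 464, limma adjusted p = 0.0400), and the median was 0.24. Among 9 other adhesion and homing receptors, the selectin ligand Selplg rose from 788, 678 and 724 to 1140, 1119 and 1071 (change 0.61, limma adjusted p = 0.00825). The adhesion protein Mpzl2 fell, with changes of -2.76 and -1.63 in its 2 called probe sets (limma adjusted p = 0.00163 and 0.00114), and the median of that list was 0.04.

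**Figure D4:**
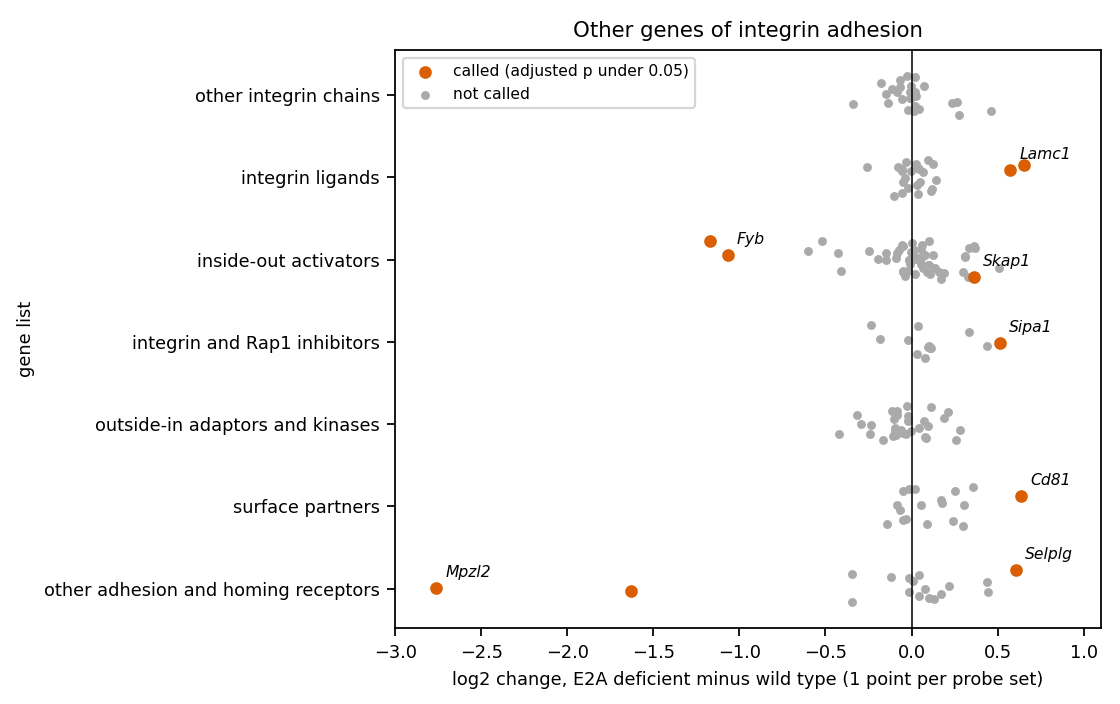
Log2 change of each probe set of 7 lists of genes around the integrins, E2A deficient minus wild type, 1 point per probe set, with called probe sets in orange and named. The 14 other integrin chains and the 13 outside-in adaptors and kinases have none called; Fyb and Mpzl2 lie to the left and Lamc1, Skap1, Sipa1, Cd81 and Selplg to the right.

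The genes whose pattern over the 6 arrays was most like that of each called chain were named as a description, by Pearson r of log2 intensity with the chain's brightest probe set. For Itgae they were Cxxc1 (r = 0.996), Myl12b (0.995) and Slamf1 (0.995), and for Itgb7 Lmo4 (0.998), Prdx4 (0.998) and Rora (0.997). For Itgb3 they were Alox5 (0.998), Tmem60 (0.996) and Fam20a (0.996), and for Itgb2 Plp2 (0.997), Dennd1c (0.996) and Slc25a24 (0.996). With 6 arrays in 2 groups, between 200 and 307 genes exceeded r = 0.95 with each of these 4 chains, so the order among them carries little weight.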

How the data were processed

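The authors deposited linear intensities, 1 per probe set and array, made with RMA per the submitters' processing notes; RMA's version, the way its values became linear and any later scaling are not given in the sources used here. Per the labels' protocols, sorted cells were lysed directly and a small-sample protocol amplified the RNA over repeated transcription, which favours 3′ ends. From the deposited intensities, log2(intensity + 1) was computed and fitted per probe set with limma 3.58.1 (R 4.3.3, two-sided, empirical Bayes, Benjamini-Hochberg over 45037 probe sets, threshold 0.05), after 64 control probe sets were left out, with no filter on dim probe sets. The steps were checked on simulated data. The annotation gave 1 gene to 34945 probe sets, several to 932 and none to 9160, and it can be old. A level near the array median may be background, and no detection calls were used here, so changes of dim probe sets are compressed. Calls near the threshold rest on 3 arrays per group, which limits the precision.

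The integrin members, the pathway and marker lists and the tests were chosen with earlier results of these data known. All integrin probe sets and called genes of each list (or the 3 with the smallest p) were named. So were the 3 genes most like each chain called by its brightest probe set. Named outside this rule were genes overlapping a member, Itga2b, the sample checks and the uncalled gamma-delta and innate lymphoid markers. Correlations of the deviations of same-numbered arrays from their group means were 0.0413, 0.0414 and -0.0360. Those of differently numbered arrays were -0.0763 to 0.0370. Replicates 1 and 2 thus gave the highest values, but all were small, so whether the replicate numbers pair the samples was not settled. Alternatives left out each array, used the replicate number as a block, normalized by quantiles or centred on medians, used 0 or 16 in place of the pseudocount of 1, kept only probe sets above the median, weighted arrays, let variances follow intensity (with robust estimation), added the beta-actin ratio as covariate, dropped probe sets shared between transcripts, and took the brightest or the mean probe set per gene. Plots were made in matplotlib 3.10.9 under Python 3.11.15.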

Additional observations from a re-analysis of the deposited data

How the results depend on the processing

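Over the 18 alternatives, 3 to 7 integrin probe sets were called higher, and 0 lower. The 3 came from the beta-actin covariate, and leaving out 1 array gave 4 to 7. With the replicate number as a block 5 integrin probe sets were higher, and over all probe sets 309 were higher and 162 lower, beside 543 and 261 without it. The deviations of same-numbered arrays did not settle whether the replicate numbers pair the samples. Over all probe sets, the beta-actin covariate gave 71 higher and 43 lower, and leaving out 1 array gave 243 to 380 higher and 115 to 194 lower. Dropping probe sets shared between transcripts gave 350 higher and 181 lower. Fewer probe sets were tested there, so these counts cannot be set directly beside the others. Of 437 values of single integrin probe sets under alternatives, 412 kept direction and side of the threshold, 11 lost and 4 gained a call, and 10 changed sign, all of them of uncalled probe sets. With 1 array left out these ranged from -0.0976 to 0.0239 for Itgb1 1426918_at, -0.109 to 0.0137 for Itgb1 1426919_at, -0.0287 to 0.151 for Itga6 1422444_at, -0.0661 to 0.111 for Itgav 1432296_a_at, -0.0260 to 0.0492 for Itgav 1432679_at, -0.0045 to 0.0878 for Itgav 1421198_at and -0.0213 to 0.0440 for Itgal 1425367_at. With the beta-actin covariate Itgav 1432296_a_at was at -0.0214. With the mean probe set of a gene, Itgae minus Itgb7 was -0.20. The cause was not tested. Itgae 1449216_at gained a call without E2A-deficient replicate 2 and with an intensity trend, and the mean of the Itga4 probe sets was called where the brightest was not. Signal near the array medians limits Itgam, most Itgb1 and Itgav probe sets and Itgb3 1421511_at, where a difference may not have been detectable.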
